A study of Danio rerio with 18 samples.

Results

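The radiation response of zebrafish embryos that lack puma, noxa and p21 was set against that of wild type embryos, gene by gene, at 3 h. For each gene the measure was the change in the triple mutant (3 h minus untreated) minus the change in the wild type (3 h minus untreated), on the scale of log2(TPM + 1). TPM is an abundance per gene corrected for transcript length and scaled to a fixed sum in each library. The comparison uses 8 of the 18 libraries of the series, 2 in each of 4 groups, and the rule did not use any measured value.

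The groups were triple mutant embryos (puma -/- noxa -/- p21 -/-, labelled PNP) 3 h after irradiation, untreated triple mutant embryos, p53 +/+ embryos (WT) 3 h after irradiation, and untreated p53 +/+ embryos. Irradiated embryos received X-rays at 30 h after fertilization, to a total of 30 Gy at 5 Gy per min. All libraries came from whole embryos, so fewer cells of a type and less RNA per cell cannot be told apart. The labels give no alleles and no collection time for the untreated embryos, nor whether paired libraries are separate clutches or pools. The p-values therefore measure only the spread between libraries. That spread, and each SE, was estimated from all 18 libraries in 9 groups. These add the triple mutant at 1 h and 2 h and the p53 mutant untreated, at 1 h and at 3 h. All groups were assumed to vary alike. The median absolute difference between paired libraries ran from 0.095 (p53 mutant at 3 h) to 0.81 (p53 mutant at 1 h) on the log2 scale. Embryos with mutant p53 (p53 -/-, 3 h and untreated, 2 libraries each) are given beside the results for context. The series title names p21, ccng1, foxo3b and fbxw7 in arrest of the cell cycle by p53.

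When DNA is broken, checkpoint kinases release the transcription factor p53 from its inhibitor Mdm2. p53 then switches on genes for death of the cell, among them puma (bbc3) and noxa (pmaip1), which bind and block the protective members of the Bcl2 family. It also switches on p21 (cdkn1a), which inhibits the kinases that drive the cell cycle and thereby lowers many genes of mitosis. The triple mutant keeps p53 and lacks these 3 effectors, so a comparison with the wild type addresses what of the transcript response depends on them.

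Libraries stood apart in a way that touches the comparison. There were 9 genes, 4 of them copies of the U1 small nuclear RNA and 2 of the 5.8S ribosomal RNA, at 1 TPM or more in 6 libraries and at 0 in the other 12. The 6 were both untreated wild type libraries and the untreated and 1 h libraries of the p53 mutant. The 12 were all triple mutant libraries and those taken at 3 h from the other genotypes. The wild type change at 3 h therefore crosses this split of the libraries, and so does the p53 mutant change at 3 h. The triple mutant change does not, and the split and the difference of the responses cannot be told apart. The labels name a pair of sequencing centres with different read lengths without saying which library came from which. The untreated wild type pair also agreed least among the 4 groups, with a correlation across genes of 0.944. It was 0.994 in the irradiated and the untreated triple mutant and 0.987 in the irradiated wild type. The median absolute difference between paired libraries was 0.52 on the log2 scale in the untreated wild type. In the irradiated wild type it was 0.17, and in the irradiated and the untreated triple mutant 0.098 and 0.099. The untreated wild type libraries held 2.66% and 8.06% mitochondrial transcripts and 392 and 16.8 TPM of 5.8S ribosomal RNA. In these 8 libraries 15878 to 17419 genes reached 1 TPM. The depth of the libraries is unknown from TPM.

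**Figure D1:**
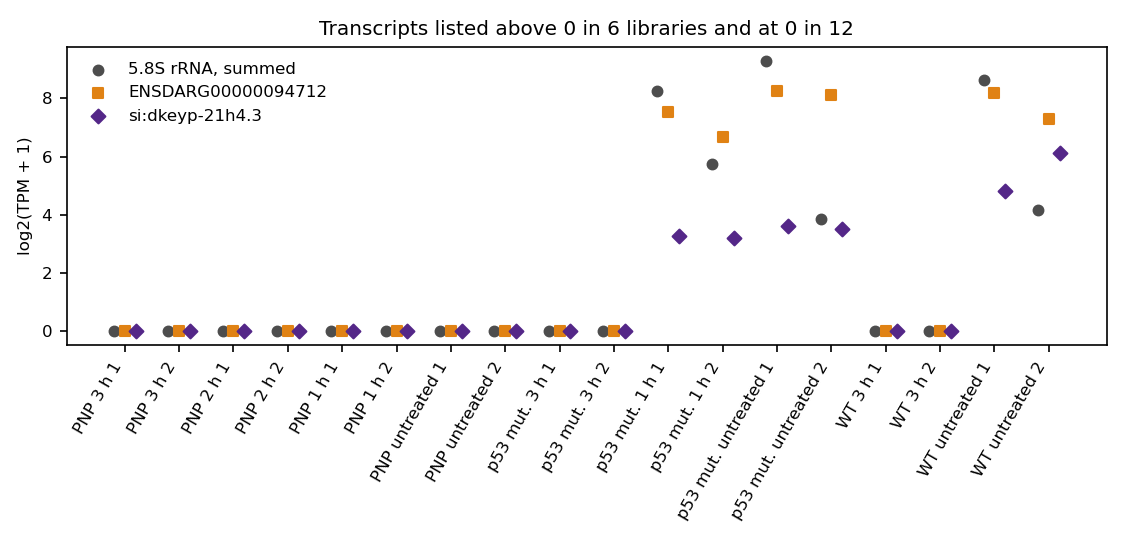
Level of 5.8S ribosomal RNA (summed over its genes), ENSDARG00000094712 and si:dkeyp-21h4.3 in each of the 18 libraries, as log2(TPM + 1), with 1 point per library and transcript. All 3 are at 0 in every triple mutant library and in the 3 h libraries of the other genotypes, and above 0 in both untreated wild type libraries.

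Most genes called in the triple mutant were called in the wild type as well, in the same direction. In the triple mutant 111 of 18575 genes tested rose (0.598%) and 28 fell (0.151%), and in the wild type 578 rose (3.11%) and 124 fell (0.668%), at a limma adjusted p under 0.05. In all, 139 genes (0.748%) were called in the triple mutant and 702 (3.78%) in the wild type. Of the genes that rose in the triple mutant, 101 also rose in the wild type, which is 91.0% of the triple mutant's list and 17.5% of the wild type's. The genes that fell in both numbered 23, or 82.1% and 18.5% of the lists. No gene was called in opposite directions. Of the 578 genes that rose in the wild type, 513 had a change above 0 in the triple mutant. The median change over the 578 was 0.28 on the log2 scale in the triple mutant and 0.93 in the wild type. Over all genes it was 0.07 and 0.23, so a change above 0 was the more common direction in both genotypes. The 578 were picked by their wild type change, so the choice itself favours a larger median in the wild type. Which genotype had more calls depended on the weighting of the libraries: with array weights, which give less weight to libraries that deviate more, 3281 genes were called in the triple mutant and 174 in the wild type. Median-of-ratios rescaling and quantile normalization gave 222 and 224 calls in the triple mutant. Leaving out any 1 of its 4 libraries gave 64 to 75. In the wild type the total was 278 and 172 without irradiated wild type replicate 1 and 2, 457 without untreated wild type replicate 2, 1895 and 1900 without p53 mutant replicate 1 and 2 at 1 h, and 425 to 438 without any 1 library of the p53 mutant at 3 h or of the triple mutant at 3 h, at 2 h or untreated.

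The difference of the responses was called for 11 of 18575 genes (0.0592%), 2 higher (0.0108%) and 9 lower (0.0485%) in the triple mutant. An unadjusted p under 0.05 was reached by 1105 genes (5.95%). With libraries rescaled by median-of-ratios factors the split was 3 higher and 4 lower. With no filter on low values the total was 25. Without untreated triple mutant replicate 1 the total was 5, without replicate 2 of the untreated or of the irradiated triple mutant it was 6, without irradiated wild type replicate 2 it was 7, without p53 mutant replicate 1 and 2 at 1 h it was 18 and 27, without untreated wild type replicate 1 it was 62, with all 11 genes among them, and a fit to the 8 libraries alone gave 6, with 5 of the 11 among them. The median difference over all genes was -0.18 on the log2 scale and 0.01 after that rescaling, so list medians below are read against -0.18. The test was coarse: the median standard error of a difference was 0.41, the smallest difference called was 1.28 in size, and the 95% interval lay between -1 and 1 for 6036 genes. Across the 18575 genes the change in the triple mutant and the change in the wild type had a Pearson correlation of 0.43 and a Spearman correlation of 0.30, given as a description because genes are not independent and depth and composition are shared within a library. For the p53 mutant and the wild type, whose changes both cross the library split, these correlations were higher, at 0.53 and 0.44.

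**Figure D2:**
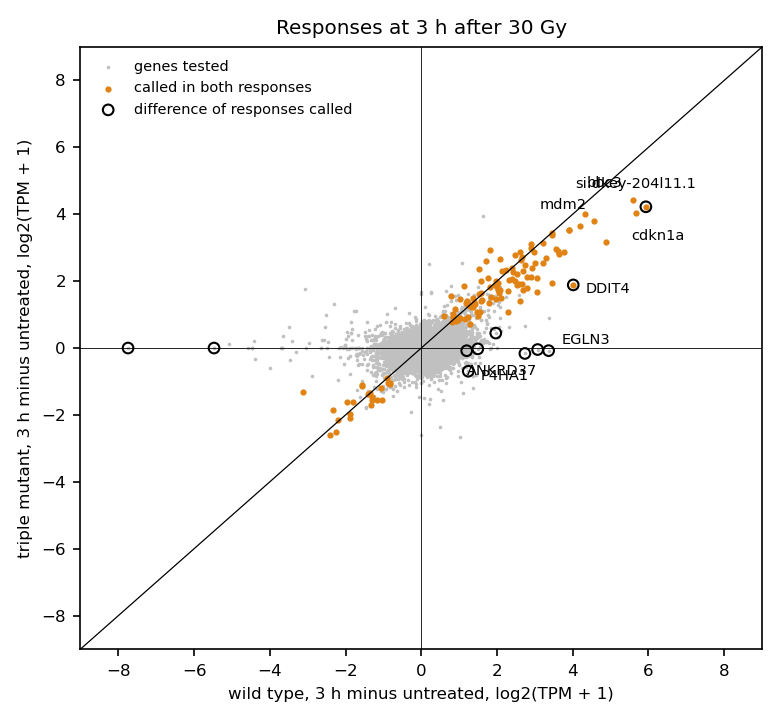
Change at 3 h in the triple mutant (vertical axis) against the change in the wild type (horizontal axis), both as 3 h minus untreated on log2(TPM + 1), with 1 point per gene tested and the diagonal marking equal changes. The genes called in both responses lie in the upper right and lower left, and the circled genes, whose difference of responses was called, include EGLN3, ANKRD37 and P4HA1 near or below 0 in the triple mutant and 2 genes far to the left near 0 on the vertical axis.

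Transcripts of all 3 mutated genes were still detected in the triple mutant, where bbc3 and cdkn1a rose and the change of pmaip1 was not called, so these levels leave the genotype unchecked. The death gene bbc3 (puma, ENSDARG00000069282) had 35.4 and 33.8 TPM in irradiated and 0.58 and 0.72 TPM in untreated triple mutant embryos, against 87.5 and 100.04 TPM in irradiated and 0.80 and 1.15 TPM in untreated wild type embryos. Its level rose in both genotypes, by 4.43 ± 0.198 (SE, log2) in the triple mutant (adjusted p = 2.73e-07) and by 5.59 ± 0.198 in the wild type (adjusted p = 1.83e-08). The irradiated triple mutant libraries lay below the irradiated wild type libraries, and all untreated libraries were at 1.15 TPM or less. The difference of the responses was -1.16 ± 0.279 (95% interval -1.77 to -0.55) and missed the threshold (adjusted p = 0.388). With untreated levels this low its size depends on the pseudocount.

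The p21 gene cdkn1a (ENSDARG00000076554) had 65.8 and 51.9 TPM in irradiated and 1.92 and 3.54 TPM in untreated triple mutant embryos. In the wild type it had 361 and 306 TPM after irradiation and 4.44 and 6.96 TPM in untreated embryos. All triple mutant libraries lay below the wild type library pair of the same treatment. It rose by 4.03 ± 0.488 in the triple mutant (adjusted p = 0.00113) and by 5.66 ± 0.488 in the wild type (adjusted p = 4.04e-05). The difference was -1.63 ± 0.690 with a 95% interval of -3.14 to -0.13, and it was not called (adjusted p = 0.778).

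The noxa gene pmaip1 (ENSDARG00000089307) moved least of the mutated genes. It had 6.17 and 5.82 TPM in irradiated and 2.7 and 3.35 TPM in untreated triple mutant embryos, against 10.5 and 10.6 TPM in irradiated and 4.75 and 3.00 TPM in untreated wild type embryos. It rose in the wild type by 1.27 ± 0.227 (adjusted p = 0.00992). The change in the triple mutant was 0.80 ± 0.227 and was not called (adjusted p = 0.329), and the difference of -0.47 ± 0.321 was not called either (adjusted p = 1).

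Of the other genes of the series title, CCNG1 and foxo3b rose in both genotypes, FBXW7 was called in neither, and none had a called difference. Cyclin G1 (CCNG1, ENSDARG00000076667), a p53 target that binds a phosphatase acting on Mdm2, had 2205 and 2325 TPM in irradiated and 730 and 927 TPM in untreated triple mutant embryos, against 1438 and 1738 TPM in irradiated and 495 and 331 TPM in untreated wild type embryos. It rose by 1.46 ± 0.193 in the triple mutant and by 1.96 ± 0.193 in the wild type, with a difference of -0.50 ± 0.272 (adjusted p = 0.948). The forkhead factor foxo3b (ENSDARG00000042904) had 80.4 and 85.6 TPM in irradiated and 6.61 and 6.98 TPM in untreated triple mutant embryos, against 121 and 108 TPM in irradiated and 6.32 and 14.2 TPM in untreated wild type embryos. Its rise was 3.43 ± 0.551 in the triple mutant and 3.45 ± 0.551 in the wild type, and the interval of the difference ran from -1.72 to 1.68. FBXW7 (ENSDARG00000060994), which marks cyclin E and other proteins for destruction, had 29.2 and 30.8 TPM in irradiated and 14.75 and 12.8 TPM in untreated triple mutant embryos. In the wild type it had 50.35 and 47.7 TPM after irradiation and 18.5 and 26.5 TPM in untreated embryos. Irradiated libraries lay above untreated ones in each genotype without overlap. The change was 1.07 ± 0.395 in the triple mutant and 1.11 ± 0.395 in the wild type and was called in neither (adjusted p = 0.741 and 0.157). The interval of the difference ran from -1.25 to 1.18, and the p53 mutant changed by -0.02. For foxo3b and FBXW7 these intervals, which reach beyond 1 in size, do not show that the genotypes respond alike.

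Among p53 targets, those that rose in the triple mutant formed a subset of those that rose in the wild type. Of 62 targets in the files, 57 passed the filter on low values. In the triple mutant 17 of the 57 rose, in the wild type 21 rose, and all 17 were among the 21. Shares over all genes were 0.598% and 3.11%. Over the 17 the median change was 3.11 in the triple mutant, 3.45 in the wild type and 0.13 in the p53 mutant. The difference of the responses was called for 1 of the 57, DDIT4, which was lower in the triple mutant, and the interval lay between -1 and 1 for 18 of the 57. The median difference over the list was -0.18, the same as over all genes, and 0.03 after median-of-ratios rescaling.

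**Figure D3:**
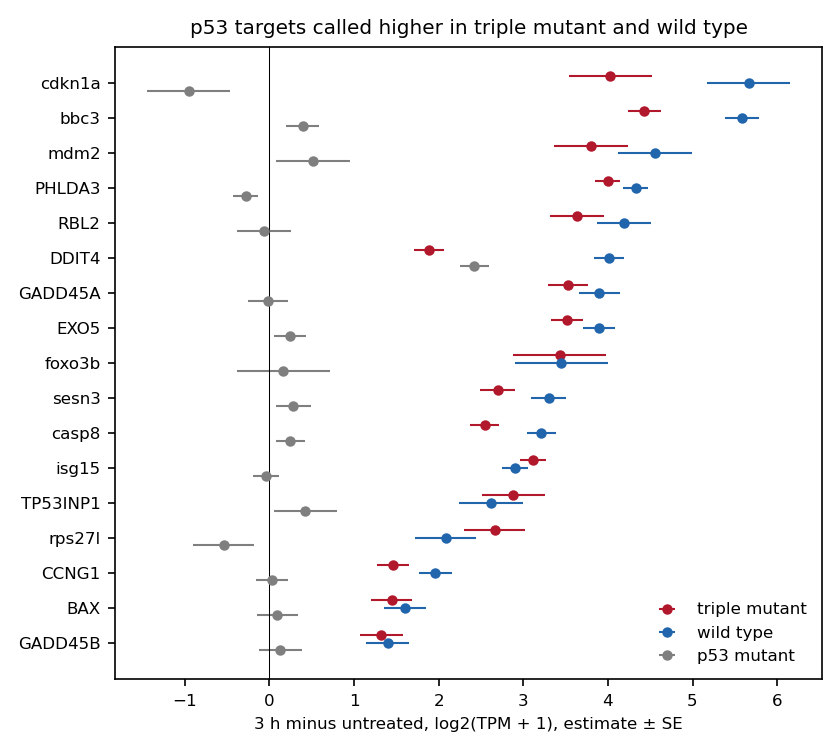
Change at 3 h (3 h minus untreated, log2(TPM + 1), estimate ± SE, 2 libraries per group) of the 17 p53 targets called higher in both the triple mutant and the wild type, with the p53 mutant for comparison. The triple mutant and wild type points lie at or above 1.32 for every gene, while DDIT4 is the gene with a called difference between them and the p53 mutant points other than DDIT4 lie between -0.95 and 0.51.

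Genes that feed back on p53 also rose in both genotypes. The inhibitor mdm2 (ENSDARG00000033443) had 722 and 806 TPM in irradiated and 54.8 and 53.3 TPM in untreated triple mutant embryos, against 1027 and 1003 TPM in irradiated and 31.8 and 55.6 TPM in untreated wild type embryos. It rose by 3.80 ± 0.437 in the triple mutant and by 4.56 ± 0.437 in the wild type, and the difference of -0.76 ± 0.618 was not called (adjusted p = 1). In the p53 feedback list, 3 of 12 genes rose in each genotype, where 0.598% of all genes rose in the triple mutant and 3.11% in the wild type.

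PHLDA3, which restrains the kinase Akt, gave a narrow interval. It had 223 and 242 TPM in irradiated and 12.6 and 14.7 TPM in untreated triple mutant embryos, against 171 and 183 TPM in irradiated and 7.24 and 8.45 TPM in untreated wild type embryos. Both triple mutant pairs lay above the wild type pairs. The rise was 4.00 ± 0.146 in the triple mutant and 4.33 ± 0.146 in the wild type, and the interval of the difference was -0.79 to 0.12. For isg15, a ubiquitin-like protein of the interferon system, the difference was 0.21 with an interval of -0.27 to 0.69. It had 7.35 and 9.27 TPM in irradiated and 0.04 and 0.10 TPM in untreated triple mutant embryos, against 6.66 and 7.60 TPM in irradiated and 0.04 and 0.13 TPM in untreated wild type embryos. These untreated levels lie far below the pseudocount of 1 TPM, so the isg15 difference and its interval depend on the pseudocount.

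The cell death machinery beyond puma and noxa showed no called difference. Rises were called for 0.598% of all genes in the triple mutant and for 3.11% in the wild type. In the Bcl2 family list 2 of 24 genes rose in the triple mutant (bbc3 and BAX) and 5 in the wild type. BAX, which opens the mitochondrial membrane, rose by 1.45 ± 0.243 in the triple mutant and by 1.60 ± 0.243 in the wild type, with an interval of the difference of -0.91 to 0.59. Of 37 genes for caspases and their partners, 3 rose in the triple mutant and 6 in the wild type. HTRA2 (ENSDARG00000092202) had the smallest p of this list (difference -1.19, adjusted p = 0.143). Another gene of that name (ENSDARG00000076713) had 1.05 (adjusted p = 0.503). The pairwise changes did not overlap, with the triple mutant lower and higher, for 17 and 4 of the 37. For the 24 Bcl2 family genes, bbc3 and pmaip1 among them, it was 10 and 0, where 21.9% and 4.32% of all genes did so. The initiator casp8 had 41.0 and 49.9 TPM in irradiated and 6.72 and 7.12 TPM in untreated triple mutant embryos, against 49.3 and 61.3 TPM in irradiated and 5.38 and 4.71 TPM in untreated wild type embryos. It rose by 2.55 ± 0.171 in the triple mutant and by 3.21 ± 0.171 in the wild type, and the difference of -0.67 ± 0.242 was not called (adjusted p = 0.697).

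Inhibitors of the cell cycle other than p21 also rose without a called difference. In the list of arrest genes, which includes p21 itself, 8 of 46 rose in the triple mutant. All 8, cdkn1a among them, were among the 10 that rose in the wild type. Shares over all genes were 0.598% and 3.11%. CDKN1B (ENSDARG00000029018), an inhibitor of cyclin-dependent kinases related to p21, had 66.0 and 68.0 TPM in irradiated and 16.6 and 17.4 TPM in untreated triple mutant embryos, against 70.29 and 72.0 TPM in irradiated and 12.1 and 8.84 TPM in untreated wild type embryos. It rose by 1.92 ± 0.167 in the triple mutant and by 2.67 ± 0.167 in the wild type, with a difference of -0.75 ± 0.236 (adjusted p = 0.565). The inhibitor gene cdkn2a/b had 8.24 and 15.9 TPM in irradiated and 0.90 and 0 TPM in untreated triple mutant embryos, against 32.9 and 29.4 TPM in irradiated and 0.17 and 0 TPM in untreated wild type embryos. The irradiated libraries of the genotypes did not overlap for this gene. Its difference of -1.71 ± 0.531 was not called (adjusted p = 0.550) and depends on the pseudocount.

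A set of mitosis genes fell in the triple mutant too. Of 87 genes tested, 12 fell in the triple mutant and 16 in the wild type, 11 of them in both, and 11 fell in the p53 mutant, where 0.226% of all genes fell. Shares over all genes were 0.151% in the triple mutant and 0.668% in the wild type. No difference of the responses was called, 3 of the 87 had an unadjusted p under 0.05 (all lower in the triple mutant), and the interval lay between -1 and 1 for 42. The median change was -0.49 in the triple mutant, -0.39 in the wild type and -0.37 in the p53 mutant. Over all genes it was 0.07, 0.23 and 0.17. After median-of-ratios rescaling the mitosis medians were -0.57, -0.68 and -0.56, with all genes at 0.003, -0.02 and 0.007. The order of the triple mutant and the wild type thus depended on the scaling. The median difference was -0.09, against -0.18 over all genes, and after median-of-ratios rescaling 0.13, against 0.01 over all genes. It lay above the median of all genes on both scales. Its sign depended on the scaling, and without rescaling also on the untreated wild type replicate 1 (0.24 without it, -0.47 without replicate 2). The medians over all genes in those fits are not given here.

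CDC20, which activates the ligase that ends mitosis, had 9.40 and 9.88 TPM in irradiated and 43.7 and 45.2 TPM in untreated triple mutant embryos, against 11.5 and 13.2 TPM in irradiated and 40.2 and 58.6 TPM in untreated wild type embryos. It fell by 2.1 in the triple mutant and by 1.89 in the wild type (SE 0.181 each), and the interval of the difference was -0.76 to 0.35. The irradiated libraries lay below the untreated ones in each genotype without overlap. The mitotic kinase gene aurka had 14.1 and 16.0 TPM in irradiated and 45.8 and 46.4 TPM in untreated triple mutant embryos, against 18.1 and 16.5 TPM in irradiated and 37.4 and 36.0 TPM in untreated wild type embryos. It fell by 1.56 in the triple mutant and by 1.04 in the wild type, and its difference of -0.51 ± 0.194 had the smallest p of the list and was not called (adjusted p = 0.725). cdca3, which triggers entry into mitosis, fell by 2.15 in the triple mutant and by 2.19 in the wild type, with an interval of the difference of -0.42 to 0.52.

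In the list of S phase genes, which encode the replication machinery, 3 of 77 fell in the triple mutant and 2 in the wild type. Shares over all genes were 0.151% and 0.668%. MCM2 and MCM5, subunits of the helicase that opens DNA for copying, fell in both. MCM5 had 30.8 and 29.0 TPM in irradiated and 94.0 and 91.9 TPM in untreated triple mutant embryos, against 28.6 and 33.2 TPM in irradiated and 84.2 and 145 TPM in untreated wild type embryos. No member had a called difference.

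Called differences included genes known from the response to low oxygen, which rose in the wild type and whose change was not called in the triple mutant. EGLN3 (ENSDARG00000032553), a hydroxylase that marks the hypoxia-inducible factor for destruction and is itself switched on by that factor, had 1.44 and 1.18 TPM in irradiated and 1.68 and 1.21 TPM in untreated triple mutant embryos. In the wild type it had 27.5 and 26.7 TPM after irradiation and 1.5 and 1.98 TPM in untreated embryos. The irradiated wild type libraries stood apart from the other 6, which overlapped. The change was -0.08 ± 0.199 in the triple mutant (adjusted p = 1) and 3.36 ± 0.199 in the wild type (adjusted p = 1.73e-06), and the difference was -3.44 ± 0.281 (adjusted p = 0.000265). EGLN3 also rose in the p53 mutant at 3 h, by 3.34 (adjusted p = 1.12e-05), with 32.3 and 24.1 TPM in irradiated and 1.77 and 1.93 TPM in untreated embryos. In the triple mutant at 1 h and 2 h it lay between 1.5 and 2.06 TPM. The libraries of all 3 genotypes at 3 h are on the same side of the split described above, at 0 for 5.8S ribosomal RNA, and among them the triple mutant pair was low and the other pairs were high. These levels are set across tables and are a description. The p53 mutant change crosses the split as the wild type change does, and the triple mutant change does not. The part of the split in the difference was not tested.

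ANKRD37 (ENSDARG00000056376), known in mammals as a target of the hypoxia-inducible factor, had 2.43 and 2.08 TPM in irradiated and 2.22 and 2.49 TPM in untreated triple mutant embryos, against 19.1 and 20.6 TPM in irradiated and 1.34 and 1.61 TPM in untreated wild type embryos. The irradiated wild type libraries again stood far above the rest. The difference was -3.12 ± 0.280 (adjusted p = 0.000496), from a change of -0.04 in the triple mutant and 3.07 in the wild type. The p53 mutant rose by 2.94 (adjusted p = 3.18e-05). P4HA1 (ENSDARG00000071082), a prolyl hydroxylase needed to fold collagen, had 10.4 and 9.17 TPM in irradiated and 16.2 and 16.6 TPM in untreated triple mutant embryos, against 83.1 and 80.7 TPM in irradiated and 31.7 and 36.6 TPM in untreated wild type embryos. Its difference was -1.94 ± 0.241 (adjusted p = 0.00894), with a change of -0.69 in the triple mutant that was not called (adjusted p = 0.166) and a rise of 1.24 in the wild type.

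DDIT4 (ENSDARG00000037618), which restrains the growth kinase mTOR and is a known target of both p53 and the hypoxia-inducible factor, rose in both genotypes and by less in the triple mutant. It had 77.5 and 83.7 TPM in irradiated and 22.2 and 20 TPM in untreated triple mutant embryos, against 407 and 344 TPM in irradiated and 19.4 and 25.5 TPM in untreated wild type embryos. Untreated levels overlapped, and irradiated levels did not. The change was 1.89 ± 0.173 in the triple mutant (adjusted p = 9.73e-05) and 4.01 ± 0.173 in the wild type (adjusted p = 1.12e-07), a difference of -2.13 ± 0.245 (adjusted p = 0.00541). It rose by 2.42 in the p53 mutant (adjusted p = 3.48e-05).

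Over the whole list of 64 tested genes of hypoxia and glycolysis, 4 had a called difference (6.25%, against 0.0592% of all genes), all lower in the triple mutant, namely EGLN3, ANKRD37, DDIT4 and P4HA1. This list was written after such genes had been seen among the calls, so its count is no independent evidence. In the triple mutant 2 of the 64 rose, DDIT4 and the glycolytic enzyme gene ALDOC (ENSDARG00000019702), in the wild type 11 rose, and in the p53 mutant 4 rose, where 0.231% of all genes rose. Shares over all genes were 0.598% in the triple mutant and 3.11% in the wild type. The median difference was -0.30 and, after median-of-ratios rescaling, -0.08, against 0.01 over all genes on that scale. The pairwise changes of the genotypes did not overlap for 30 of the 64 genes with the triple mutant lower and for 1 with it higher, where 21.9% and 4.32% of all genes did so. VEGFA, another textbook target of the hypoxia-inducible factor, had differences of -0.08 and -0.44 for its 2 genes and was called in neither response. Whether the embryos differed in oxygen supply was not recorded in the labels and was not tested.

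**Figure D4:**
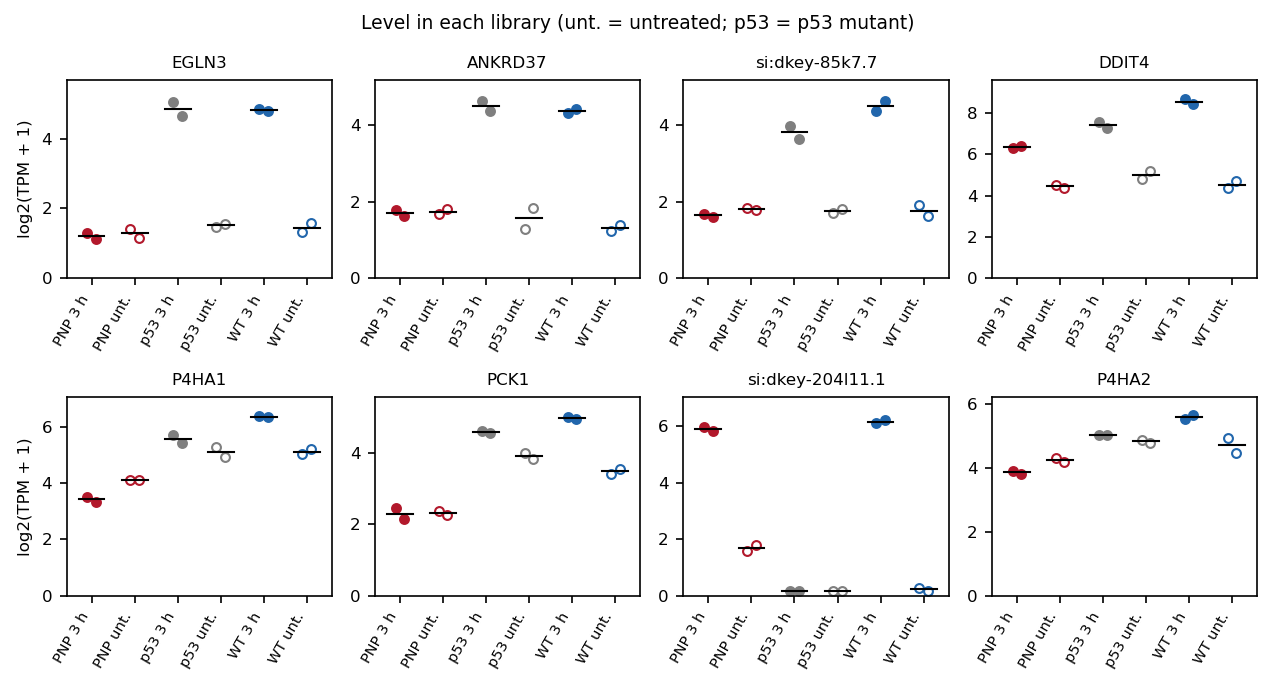
Level of 8 genes in each library of the triple mutant (PNP), the p53 mutant and the wild type (WT), at 3 h (filled) and untreated (open), as log2(TPM + 1), with the group mean as a bar and 2 libraries per group. EGLN3, ANKRD37 and si:dkey-85k7.7 are high in the irradiated wild type and p53 mutant libraries and low in all others, DDIT4 is higher after irradiation in every genotype, and si:dkey-204l11.1 is high after irradiation in the triple mutant and the wild type.

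Called differences below 0 also included 5 further genes. si:dkey-85k7.7 (ENSDARG00000101135) had 2.22 and 2.02 TPM in irradiated and 2.55 and 2.43 TPM in untreated triple mutant embryos, against 19.7 and 24.0 TPM in irradiated and 2.77 and 2.08 TPM in untreated wild type embryos, a difference of -2.90 ± 0.262 (adjusted p = 0.000496). Its pattern over the groups was that of EGLN3, with a rise of 2.06 in the p53 mutant as well (adjusted p = 0.000231). PCK1 (ENSDARG00000013522), an enzyme of glucose synthesis, had 4.45 and 3.45 TPM in irradiated and 4.23 and 3.80 TPM in untreated triple mutant embryos, against 31.3 and 30.2 TPM in irradiated and 9.74 and 10.8 TPM in untreated wild type embryos, and its difference of -1.52 ± 0.226 lay close to the threshold (adjusted p = 0.0386).

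si:dkey-204l11.1 (ENSDARG00000079403) rose in both genotypes. It had 61.8 and 56.4 TPM in irradiated and 1.99 and 2.46 TPM in untreated triple mutant embryos, against 68.0 and 73.0 TPM in irradiated and 0.21 and 0.13 TPM in untreated wild type embryos. The called difference of -1.71 ± 0.219 (adjusted p = 0.0104) thus came with higher untreated levels in the triple mutant, and with the pseudocount raised to 5 TPM it was -0.72 and was not called (adjusted p = 0.141). In the p53 mutant the gene stayed at 0.11 to 0.12 TPM. The remaining 2 called genes were low: pimr191 reached 0.57 and 0.62 TPM in irradiated triple mutant embryos, against 3.80 and 3.14 TPM in irradiated wild type embryos (difference -1.52, adjusted p = 0.00803), and mxtx1 reached 0.58 and 0.46 TPM in irradiated triple mutant embryos, against 1.33 and 1.36 TPM in irradiated wild type embryos (difference -1.28, adjusted p = 0.0232).

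Both genes called higher belong to the transcripts that split the libraries. ENSDARG00000094712, which has no symbol, was listed at 0 in all triple mutant libraries and in the irradiated wild type libraries, and at 294 and 155 TPM in the untreated wild type libraries. si:dkeyp-21h4.3 was listed at 0 in the same 6 of the 8 libraries and at 27.3 and 68.7 TPM in the untreated wild type libraries. Their differences therefore rest on a wild type change alone and depend on the pseudocount, so no fold is read from them. Both were also above 0 in the untreated p53 mutant and at 0 in the p53 mutant at 3 h.

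The next genes by p missed the threshold. On the higher side they included tmsb, a binder of actin (1.09 ± 0.195, adjusted p = 0.12), tma7 (1.37 ± 0.276, adjusted p = 0.175), the respiratory chain subunit gene ndufv3 (1.24 ± 0.263, adjusted p = 0.212) and the ribosomal protein gene RPS28 (1.70 ± 0.374, adjusted p = 0.266), whose changes in the triple mutant lay between -0.07 and 0.22. On the lower side they were clk4a, a kinase of splicing factors (-1.32 ± 0.222, adjusted p = 0.0976), P4HA2, a relative of P4HA1 (-1.27 ± 0.218, adjusted p = 0.109), vhl, the ligase component that removes the hypoxia-inducible factor (-1.53 ± 0.268, adjusted p = 0.119), RPP30 of the RNase that trims transfer RNA (-1.30 ± 0.233, adjusted p = 0.12) and the phosphatase gene ACP5 (-1.21 ± 0.218, adjusted p = 0.12). vhl had 5.62 and 5.57 TPM in irradiated and 5.53 and 4.04 TPM in untreated triple mutant embryos, against 18.7 and 18.1 TPM in irradiated and 4.11 and 5.68 TPM in untreated wild type embryos, and it rose in the wild type by 1.73 (adjusted p = 0.000294).

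DCTPP1, which removes unwanted nucleotides, fell in both genotypes. It had 8.38 and 7.62 TPM in irradiated and 19.8 and 23.0 TPM in untreated triple mutant embryos, and it was listed at 0 in both irradiated wild type libraries, against 9.17 and 6.55 TPM in untreated ones. The difference of 1.82 ± 0.334 was not called (adjusted p = 0.125) and depends on the pseudocount.

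Lists for repair, interferon-type genes, heat shock and tissues held no called difference. Of all genes tested, 0.598% rose in the triple mutant and 3.11% in the wild type. Of 62 genes for the repair of double-strand breaks, 2 rose in the triple mutant, EXO5 and atrip, the partner of the checkpoint kinase ATR, and 5 in the wild type. EXO5, a DNA exonuclease, had 77.8 and 79.5 TPM in irradiated and 5.87 and 6.01 TPM in untreated triple mutant embryos, against 33.7 and 46.4 TPM in irradiated and 2.05 and 1.43 TPM in untreated wild type embryos, so that levels were higher in the triple mutant, while the difference of its changes, 3.52 in the triple mutant and 3.90 in the wild type, was not called (-0.38 ± 0.269, interval -0.96 to 0.21, adjusted p = 1). Of 15 interferon-type genes, 3 rose in each genotype (isg15, isg20 and ifit8). In the heat shock list 0 of 50 rose in the triple mutant and 3 in the wild type. Among those 3 was the collagen chaperone gene SERPINH1 (ENSDARG00000019949), at 96.5 and 123 TPM in irradiated and 89.0 and 85.3 TPM in untreated triple mutant embryos, against 435 and 414 TPM in irradiated and 99.8 and 106 TPM in untreated wild type embryos (difference -1.72 ± 0.350, adjusted p = 0.181).

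The lens list had the median difference farthest above that of all genes among the lists, and the medians of several other tissue lists also lay away from it. No member of these lists had a called difference. Markers of all 10 tissues checked were found, with none at 0 in all 8 libraries. The lens list of 39 genes had a median difference of 0.76, against -0.18 over all genes, and 0.94 after median-of-ratios rescaling. The pairwise changes did not overlap, with the triple mutant higher, for 25 of its 39 genes, where 4.32% of all genes did so. Its summed level was 2222 and 2455 TPM in irradiated and 2365 and 1988 TPM in untreated triple mutant embryos, against 3006 and 3181 TPM in irradiated and 5673 and 4159 TPM in untreated wild type embryos. The median change of the list was 0.08 in the triple mutant, -0.64 in the wild type and -0.55 in the p53 mutant. Both the wild type and the p53 mutant change cross the library split. CRYAA, a crystallin chaperone of the lens, fell in the wild type by 1.55 (adjusted p = 0.00194), and its difference of 1.34 ± 0.305 was not called (adjusted p = 0.293).

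The neuron list had a median difference of 0.24 over 48 genes, 41 of them above 0, and 0.44 after rescaling. Over all genes 5698 of 18575 differences lay above 0. Pairwise changes did not overlap for 7 neuron genes with the triple mutant higher and for 1 with it lower. Among all genes 4.32% and 21.9% did so. Summed neuron markers had 645 and 1003 TPM in untreated wild type libraries, which bracketed the irradiated ones at 855 and 785 TPM. The list of immediate early genes had a median difference of 0.21 over 47 genes and 0.39 after rescaling. On the lower side, the erythroid list had a median difference of -0.46 over 29 genes and -0.25 after rescaling. Its differences lay below 0 for 26 genes and above 0 for 3, where 12867 of all 18575 lay below 0. Among those above 0 were the globin genes hbae1.3 (0.75, the smallest p of the list) and hbae1.1 (1.11). For epidermis the median difference over 44 genes was -0.51 and, after rescaling, -0.30. Its summed level was 31726 and 30697 TPM in irradiated and 43041 and 43639 TPM in untreated triple mutant embryos, against 38729 and 40388 TPM in irradiated and 49829 and 26859 TPM in untreated wild type embryos. The untreated wild type libraries bracketed both irradiated ones. The part of tissue makeup and of the library split in the differences above was not tested.

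**Figure D5:**
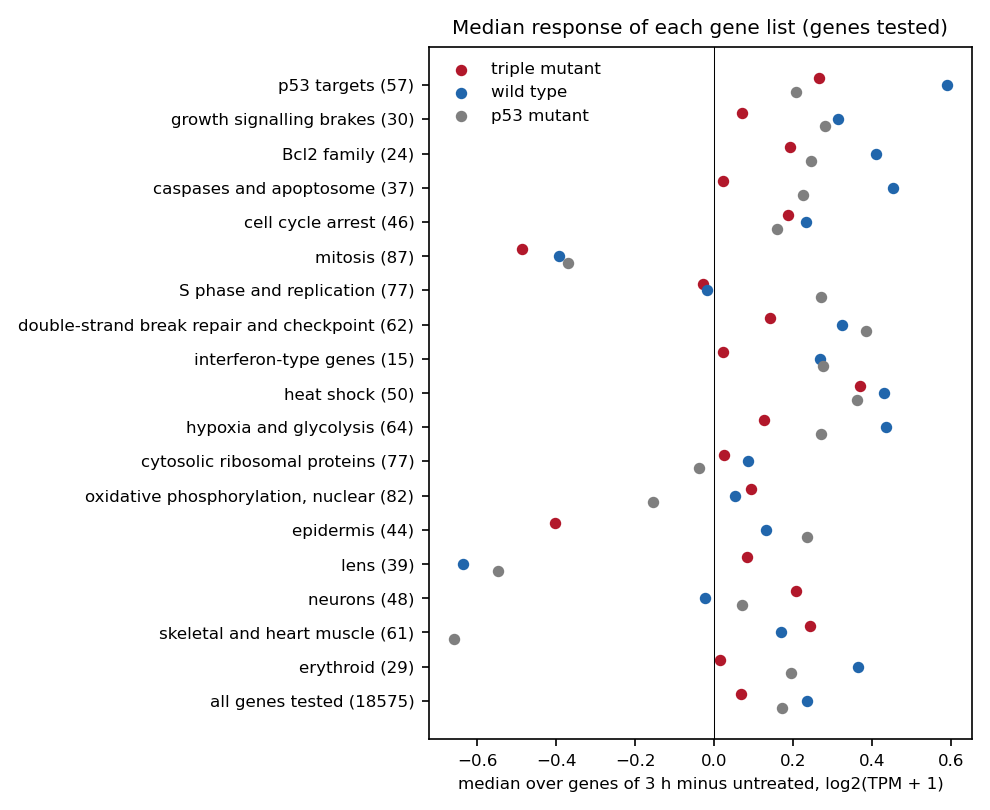
Median change at 3 h (3 h minus untreated, log2(TPM + 1)) of each gene list in the triple mutant, the wild type and the p53 mutant, with the number of genes tested in brackets and all genes tested at the bottom. Mitosis lies below 0 in each genotype (-0.49, -0.39 and -0.37), where all genes lie at 0.07, 0.23 and 0.17. Lens lies near 0 in the triple mutant and below 0 in the other genotypes.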

How the data were processed

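RNA of 18 libraries from whole embryos was sequenced after poly(A) selection, per the labels' protocols. The authors deposited TPM values, 1 table per genotype, and each library sums to the same total. Per the submitters' processing notes the tools were STAR 2.7.3a, HTSeq 0.12.3, RSEM 1.3.3, DESeq2 1.42.1 and R 4.3.3 with the build GRCz11, without roles. Their order and filters are not given in the sources used here. TPM keeps no read counts, so no counting interval was computed. A gene name table gave symbols for 28988 of 32057 genes; symbols shared by several genes are printed with their identifier.

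Here values were taken as log2(TPM + 1), which understates changes of low genes. The filter asked for 1 TPM or more in 2 or more libraries and left 18575 genes. limma 3.58.1 in R 4.3.3 was fitted to all 9 groups with a mean-variance trend (residual degrees of freedom 9, prior 2.87), which assumes that all groups vary alike. The contrast joined 4 group means, each response lying within its table. Tests were two-sided, with Benjamini-Hochberg adjustment over all genes and calls at 0.05. Levels set across tables are descriptions. The function was checked on simulated data in which each gene had the same spread in every library. That check does not cover groups that vary unequally.

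Named genes were the mutated genes, those of the title and mdm2; the 12 genes of each direction with the largest called difference, at 5 TPM or more in a group, filled up by smallest p; up to 4 members of a list with the smallest p; called members of lists; and the 5 genes of each direction that changed most in both genotypes. PHLDA3, BAX, CDKN1B, EXO5, VEGFA and other list members were named after their values were seen. The comparison, its members and the gene lists were chosen with earlier results of these data known. Alternatives changed the pseudocount, the filter, the scaling, the weights, the trend, the libraries and the replicate block. A result that needs a withheld item is not reported here.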

Additional observations from a re-analysis of the deposited data

Results flagged for a closer look

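The 11 genes named here were marked because the test of the difference itself, the limma contrast of the triple mutant and wild type changes at 3 h, passed an adjusted p of 0.05. For 5 of them the call was kept under all 34 alternatives: ENSDARG00000094712 (difference 7.74 on the log2 scale, from 5.45 to 11.06 over the alternatives), si:dkeyp-21h4.3 (5.47, from 3.29 to 8.76), EGLN3 (-3.44, from -4.02 to -2.28, adjusted p up to 0.0153), ANKRD37 (-3.12, from -3.73 to -1.96, adjusted p up to 0.00959) and si:dkey-85k7.7 (-2.90, from -3.35 to -1.92, adjusted p up to 0.0342). The first 2 are listed at 0 in both triple mutant groups and in the irradiated wild type. Their sizes depend on the pseudocount, and their calls rest on the untreated wild type libraries and follow the library split. No alternative takes the split out of the wild type change. Keeping a call under all 34 therefore does not tell genotype and split apart for any of the 5.

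The call of DDIT4 (-2.13) was lost in 4 of 34 alternatives, among them the fit without untreated triple mutant replicate 1 (-2.06, adjusted p = 0.0552), and reached at most an adjusted p of 0.142. P4HA1 (-1.94) was lost in 8 of 34, among them the fits without irradiated triple mutant replicate 2 (-1.85, adjusted p = 0.0990), without untreated triple mutant replicate 1 (-1.95, 0.0700) or 2 (-1.92, 0.0864) and without irradiated wild type replicate 1 (-1.91, 0.0558) or 2 (-1.96, 0.0637), and at most 0.246. For si:dkey-204l11.1 (-1.71) it was lost in 10 of 34, among them without any 1 of the irradiated triple mutant libraries (-1.78 and -1.65), the untreated triple mutant libraries (-1.82 and -1.61) or the irradiated wild type libraries (-1.76 and -1.66), at most at 0.193. pimr191 (-1.52) lost its call in 10 of 31, among them without any 1 of the 4 triple mutant libraries of the comparison (-1.56 to -1.48), mxtx1 (-1.28) in 18 of 31 and PCK1 (-1.52) in 24 of 34. For mxtx1 and PCK1 the libraries whose removal ended the call included ones of the p53 mutant and of the triple mutant at 1 h and 2 h, which enter only through the shared estimate of the spread. No group had the 4 or more libraries that the check for a library far from its group needs.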

How the results depend on the processing

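Values in this part are counts of called genes unless said otherwise. The 11 genes with a called difference became 25 with no filter on low values, 7 after median-of-ratios rescaling and 6 with 8 libraries only, and single libraries left out moved the count between 5 and 62. The triple mutant count of 139 became 222 after median-of-ratios rescaling, 224 after quantile normalization and 3281 with array weights, and 64 to 197 without single libraries. The wild type count of 702 became 174 with array weights and 172 to 1900 without single libraries. Alternatives chosen after seeing the data left whole sets of libraries out. Without both p53 mutant libraries at 1 h, the difference had 26 calls and the wild type 1911. Without the 3 libraries with over 100 TPM of 5.8S ribosomal RNA the difference had 2900 calls, the triple mutant 1020 and the wild type 5247, and without the 3 libraries with 10 to 100 TPM it had 5342, the triple mutant 1037 and the wild type 10552. Each of these last 2 fits leaves 1 untreated wild type library, assumed to vary like the other groups, and removes the pairs with the widest spread.

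The median difference of the p53 targets (-0.18) was 0.0326 after median-of-ratios rescaling, 0.0563 without the libraries over 100 TPM, -0.38 without those at 10 to 100 TPM and -0.38 to 0.0563 without single libraries. That of mitosis (-0.09) was 0.13 after median-of-ratios rescaling, 0.11 after quantile normalization, 0.24 and -0.47 without those sets, and -0.47 to 0.24 without single libraries. Small differences changed sign: foxo3b (-0.02) was 0.0129 with a pseudocount of 0.1 TPM, 0.23 after median-of-ratios rescaling, 0.50 without the libraries over 100 TPM and -0.55 to 0.50 without single libraries. After median-of-ratios rescaling FBXW7 (-0.04) was 0.19 and CDCA7 (-0.18) was 0.0127, after quantile normalization they were 0.078 and 0.11, and without the libraries over 100 TPM 0.21 and 0.11. Without single libraries FBXW7 ran from -0.28 to 0.21, CDCA7 from -0.48 to 0.11 and cdca3 (0.05) from -0.0577 to 0.16. The median difference over all genes moved as well, from -0.18 to 0.01 after median-of-ratios rescaling and to -0.01 after quantile normalization. The cause of the shifts was not tested.

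Replicate numbers are shared by the groups, and nothing in the labels ties them to a clutch or day. Deviations of same-numbered libraries correlated at -0.34 to 0.08 among the 4 groups compared, which does not show that the numbers pair them. Over all 9 groups the correlations ran from -0.353 to 0.789, and the untreated wild type, the untreated p53 mutant and the p53 mutant at 1 h deviated together (0.626 to 0.789), as did the triple mutant at 1 h with each of these (0.369 to 0.498), so whether some of the numbers mark a shared source is not known. With the shared replicate number as a block the difference had 10 calls, the triple mutant 152 and the wild type 906, and with a block within each genotype 5, 138 and 697. With the numbers of the untreated wild type libraries crossed, an alternative chosen after seeing the data, the counts were 10, 150 and 797. The depth of the libraries is unknown, so what depth limits could not be worked out.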

Other observations

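Without untreated wild type replicate 1, 62 genes had a called difference, 15 higher and 47 lower, and 51 of them were not called with all libraries. The single untreated wild type library that remains is then assumed to vary like the other groups. The lower genes included P4HA2 (-1.49), the secretory pathway receptor gene KDELR3 (-1.63), the epidermal crosslinking enzyme gene TGM1 (-1.66), the keratin gene krt17 (-2.71), the gap junction gene GJB6 (-1.46) and the chemokine receptor gene CXCR4 (-1.45), all on the log2 scale. On the higher side were ndufv3 (1.48), RPS28 (2.09) and the muscle actin gene actc1c (6.46). These genes were named after their values were seen.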
